A study of Homo sapiens with 3 samples.

Results

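Sterol synthesis and cholesterol handling genes were described in KYSE180, a human oesophageal squamous carcinoma line, on 3 oligonucleotide arrays. The list held 31 genes, and its members were all probe sets of the deposited table whose platform annotation gave exactly 1 of these symbols, 81 of 49293 probe sets. They covered 29 of the 18132 genes with such a probe set. CYP51A1 was present only on 2 probe sets that the annotation also assigned to another gene, and FDFT1 was not analysed here. The first group was cells that received, with Polyfect, a vector for HOTAIR, a long non-coding RNA of the HOXC locus. The second was cells given a mixture of Stealth siRNAs against HOTAIR (100 pmol) with Lipofectamine2000, and the third was labelled only as control. RNA was taken 48 h after transfection. All groups shared the same parental line, and there was 1 array per group, so no difference below has a replicate check and none was tested. The control sample's labels do not say whether it received a reagent, an empty vector or the negative-control siRNA. The source name of the siRNA sample speaks of a HOTAIR cell line, while its cell line field gives KYSE180, which was taken here. No probe set was named HOTAIR in the annotation used, so HOTAIR itself was not analysed here and the manipulations were not checked on it.

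Cells make cholesterol from acetyl-CoA through the mevalonate pathway, the condensation of isoprenoids to squalene and its cyclisation to lanosterol, and a series of reductions and demethylations in the endoplasmic reticulum. When membrane sterol is low, SCAP carries the SREBP transcription factors to the Golgi for cleavage, and the released factors induce most genes of synthesis. When sterol is high, INSIG proteins hold SCAP in the endoplasmic reticulum, and oxysterols activate the LXR receptors, which induce genes of export. Squamous epithelium uses the same pathway for membranes and for the lipids of its barrier.

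Values are log2 signals made by the authors with RMA, a method that corrects background, equalises probe intensities between arrays and summarises the probes of a probe set. For each gene the probe set with the highest mean signal was used, and the gene was kept where that mean reached 5.28, the median of all probe set means. All 29 measured members were kept, as were 69 of their 81 probe sets. In 10917 genes kept, the median difference from control was -0.18 with the vector and -0.17 with the siRNAs, and vector minus siRNA had a median of 0.01. Cyclic loess moved the vector minus control median to -0.02, so small differences from control are given also relative to the median of all genes. The only measurable error was the spread between probe sets of 1 gene, whose SD over 5982 genes was 0.36 in vector minus control, 0.39 in siRNA minus control and 0.21 in vector minus siRNA. The 5 measured squamous markers (KRT5, KRT14, DSG3, PKP1 and SFN) lay between 8.92 and 13.38 on all arrays. By contrast 0 of 6 fibroblast, 0 of 4 measured leukocyte and 0 of 4 endothelial markers reached the filter, and 1 of 4 hepatocyte markers did. In RNA of whole cultures, fewer cells with a transcript and less transcript per cell cannot be told apart.

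Against the control array, 5 of the 29 genes were at least 2-fold higher in HOTAIR vector cells and 0 were at least 2-fold lower. These were the sterol desaturase gene SC5D, the HMG-CoA synthase gene HMGCS1, the sterol sensor gene INSIG1, the isoprenoid isomerase gene IDI1 and the sterol methyl oxidase gene MSMO1. The 5 were 17.2% of the members, set beside 15.2% of all genes kept that were at least 2-fold higher in vector cells and 2.05% that were lower, so the share was close to the background. The members' median difference was -0.03, or 0.15 above the median of all genes. In HOTAIR siRNA cells 5 of 29 were higher and 0 lower, set beside 14.9% and 1.85% of all genes. They were again SC5D, HMGCS1, IDI1, MSMO1 and INSIG1, and the members' median was -0.09, or 0.08 above that of all genes. These comparisons share the control array, so values for both are given side by side and their likeness is not read as a result. Between the transfected cells, vector minus siRNA, 0 of 29 members were 2-fold apart in either direction, where 1.73% of all genes were higher and 1.85% lower, and the members' differences ran from -0.40 to 0.89 with a median of -0.05.

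**Figure D1:**
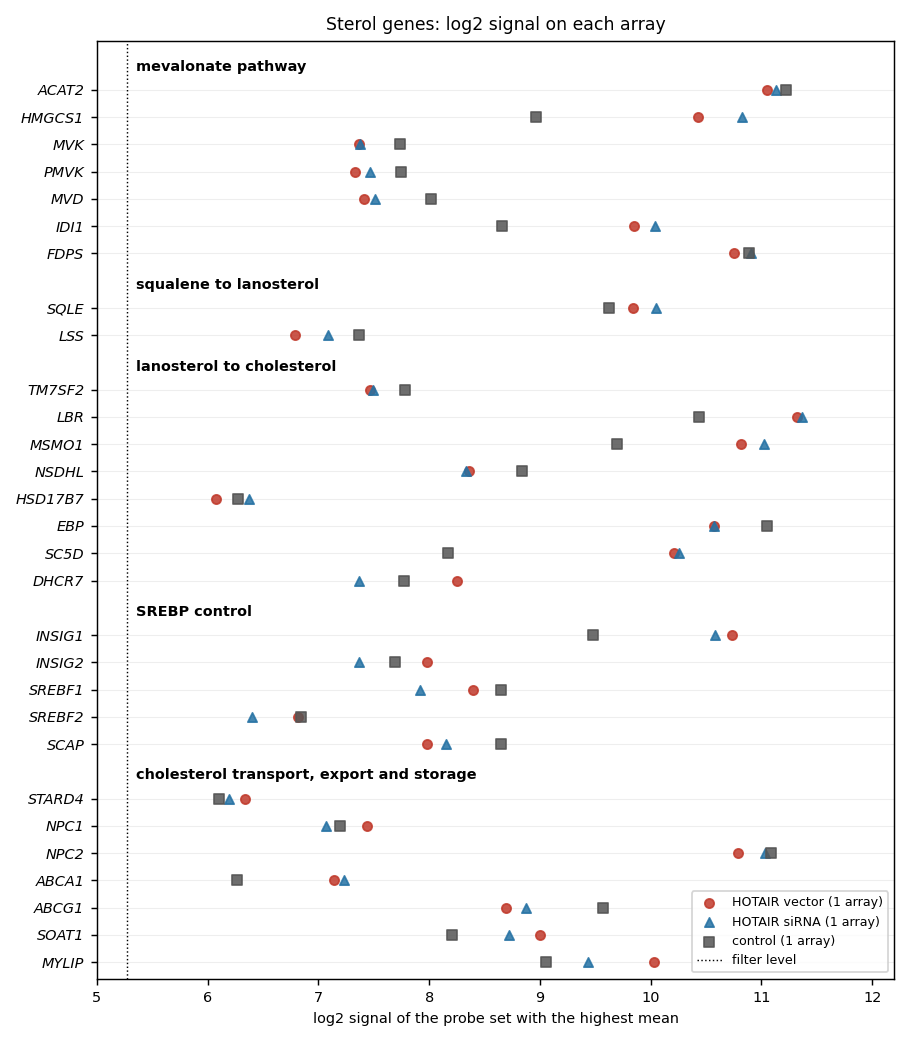
Log2 signal (x axis) of each sterol gene (rows, grouped by role) on the HOTAIR vector, HOTAIR siRNA and control arrays, 1 array each. Red and blue points lie well right of the control square for HMGCS1, IDI1, MSMO1, SC5D and INSIG1, and left of it for ABCG1 and SCAP.

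Genes of the mevalonate pathway were split. HMGCS1, which makes HMG-CoA, had log2 signals of 10.43 in vector cells and 10.83 in siRNA cells, against 8.96 in control cells, on a probe set ending in _s_at. Control cells were thus lowest and siRNA cells highest. The differences from control were 1.47 for the vector (2.77-fold) and 1.87 for the siRNAs (3.65-fold), and over the 2 probe sets of the gene they averaged 1.31 ± 0.22 and 1.67 ± 0.27 (SD between probe sets). Only 4.85% of all genes kept had a siRNA minus control difference as high as the 1.87 of HMGCS1, and 9.36% had as high a vector minus control difference. IDI1, which interconverts the activated isoprene units, had 9.85 in vector and 10.04 in siRNA cells, against 8.66 in control cells. Its differences were 1.20 and 1.39, and its second probe set gave 0.97 for the vector, just short of 2-fold, and 1.16 for the siRNAs.

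The other 5 enzymes of this stage were not 2-fold apart in any comparison. MVD, the mevalonate diphosphate decarboxylase gene, had the lowest values against control of this group, with signals of 7.41 in vector and 7.51 in siRNA cells, against 8.02 in control cells. Its differences were -0.61 and -0.51, or -0.42 and -0.34 relative to the median of all genes. The kinase genes MVK and PMVK differed from control by -0.37 and -0.42 in vector cells and by -0.36 and -0.28 in siRNA cells, within or near the spread between probe sets. ACAT2, the thiolase gene at the entry of the pathway, had 11.05 in vector and 11.13 in siRNA cells, against 11.23 in control cells, and FDPS, which makes farnesyl diphosphate, had 10.75 and 10.91, against 10.89. Those arrays lay closer together than probe sets of 1 gene usually do, and the vector minus control values of ACAT2 and FDPS, though below 0, were no lower than the median of all genes. All 7 mevalonate genes were lower in vector than in siRNA cells, by between 0.01 and 0.40 on the log2 scale, where 47.9% of all genes kept were lower. Of these only the difference of HMGCS1, at -0.40, was larger than the probe set SD of 0.21.

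From squalene to lanosterol, 2 of 3 genes were measured. SQLE, the squalene epoxidase gene, had 9.84 in vector and 10.05 in siRNA cells, against 9.62 in control cells. LSS, the lanosterol synthase gene, had 6.78 and 7.08, against 7.36, so it was ordered the other way against control. The differences of SQLE were 0.22 and 0.43 and those of LSS -0.58 and -0.28. Probe sets of these genes did not all share a sign, since 1 of the 4 SQLE probe sets, with signals of 6.53 and 6.68 against 6.82 in control cells, lay at -0.29 and -0.14, and an LSS probe set above the filter lay at 0.15 for the siRNAs.

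In the last stage, from lanosterol to cholesterol, SC5D stood furthest from control among all members. It had log2 signals of 10.21 in vector and 10.25 in siRNA cells, against 8.17 in control cells. That is 4.12-fold for the vector and 4.24-fold for the siRNAs, and only 5.06% and 3.28% of all genes were as high. All 4 probe sets of SC5D were above the filter and gave between 1.87 and 2.36 for the vector and between 1.85 and 2.39 for the siRNAs, with vector minus siRNA values between -0.04 and 0.02. Of these, 3 end in _a_at, so the SC5D difference did not rest on probe sets ending in _s_at or _x_at. MSMO1, which oxidises the methyl groups removed from lanosterol derivatives, had 10.82 and 11.02, against 9.70 in control cells. Its 3 probe sets above the filter averaged 1.15 ± 0.04 for the vector and 1.38 ± 0.10 for the siRNAs (SD), and a further one, with signals near 3 on all arrays, showed no such difference (-0.15 and -0.07).

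LBR and TM7SF2 encode sterol reductases with the same activity, and LBR also binds lamin B in the inner nuclear membrane. LBR had 11.32 in vector and 11.37 in siRNA cells, against 10.44 in control cells, on a probe set ending in _s_at. The other LBR probe set, ending in _a_at, had 6.83, 6.82 and 6.98 in the same order, so its differences were -0.14 and -0.16 where the brighter probe set gave 0.88 and 0.93. TM7SF2 differed from control by -0.32 and -0.29, and all 5 of its probe sets were below 0 in both comparisons. EBP, the sterol isomerase gene, had 10.57 in each transfected group, against 11.05 in control cells, and NSDHL, which takes part in removing the methyl groups, had 8.36 in vector and 8.33 in siRNA cells, against 8.84. These 2 genes were thus lower in both by between 0.47 and 0.51, or about 0.30 to 0.34 below the median of all genes. HSD17B7, the ketoreductase gene of the same complex, was measured on 1 probe set ending in _x_at and differed by -0.20 and 0.10.

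DHCR7, the last reductase of the pathway, was the member with the largest difference between the transfected cells. It had 8.25 in vector cells and 7.36 in siRNA cells, with 7.77 in control cells between them. The vector minus siRNA difference was 0.89, 1.85-fold, a value that 2.14% of all genes reached, and it did not pass 2-fold. Only 1 probe set measured DHCR7, so even the spread between probe sets is unknown for it.

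Control of the pathway was measured through 5 genes. INSIG1, itself a known SREBP target, had 10.73 in vector and 10.58 in siRNA cells, against 9.48 in control cells, on a probe set ending in _s_at. The other 2 INSIG1 probe sets, both ending in _a_at and both above the filter, had 9.17 and 9.02 against 9.19, and 8.14 and 7.83 against 7.64. Their differences were -0.02 and -0.17 for the first and 0.50 and 0.19 for the second, against 1.25 and 1.10 on the brightest. The 2-fold call of INSIG1 therefore rested on 1 of 3 probe sets, and over the 3 it averaged 0.58 ± 0.64 for the vector and 0.37 ± 0.66 for the siRNAs (SD).

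INSIG2, which has the same role, showed the reverse. Its probe set with the highest mean had 7.98 in vector and 7.37 in siRNA cells, against 7.69 in control cells, differences of 0.29 and -0.32. The 2 other INSIG2 probe sets had 8.21 and 7.95, against 6.46, and 7.25 and 7.08, against 5.50. Both gave 1.75 for vector minus control, and 1.49 and 1.58 for siRNA minus control. INSIG2 was thus counted as not 2-fold apart, although 2 of its 3 probe sets, one ending in _x_at and one in _a_at, were past 2-fold in both comparisons. All 3 INSIG2 probe sets were higher in vector than in siRNA cells, by 0.17 to 0.61.

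The SREBP genes and their escort were at or below control. SREBF1 had 8.39 in vector and 7.92 in siRNA cells, against 8.65 in control cells, and SREBF2 had 6.81 and 6.40, against 6.84. SREBF1 differed from control by -0.25 and -0.73 and SREBF2 by -0.03 and -0.44, with the SREBF2 sign for the vector turning under cyclic loess (0.18) and after centring (0.15). These values are from the brightest probe sets. A second SREBF1 probe set above the filter gave -0.73 and -0.57. Its vector minus siRNA value was -0.16, against 0.48 on the brightest. The other 2 SREBF2 probe sets gave -0.28 and -0.24 for the vector and -0.35 and -0.34 for the siRNAs. Their vector minus siRNA values were 0.08 and 0.10, against 0.41 on the brightest. SCAP had 7.98 in vector and 8.15 in siRNA cells, against 8.65 in control cells, and its 2 probe sets averaged -0.81 ± 0.19 and -0.63 ± 0.17 (SD). The SCAP value for the vector, -0.67, was among the lowest 13.1% of all genes.

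**Figure D2:**
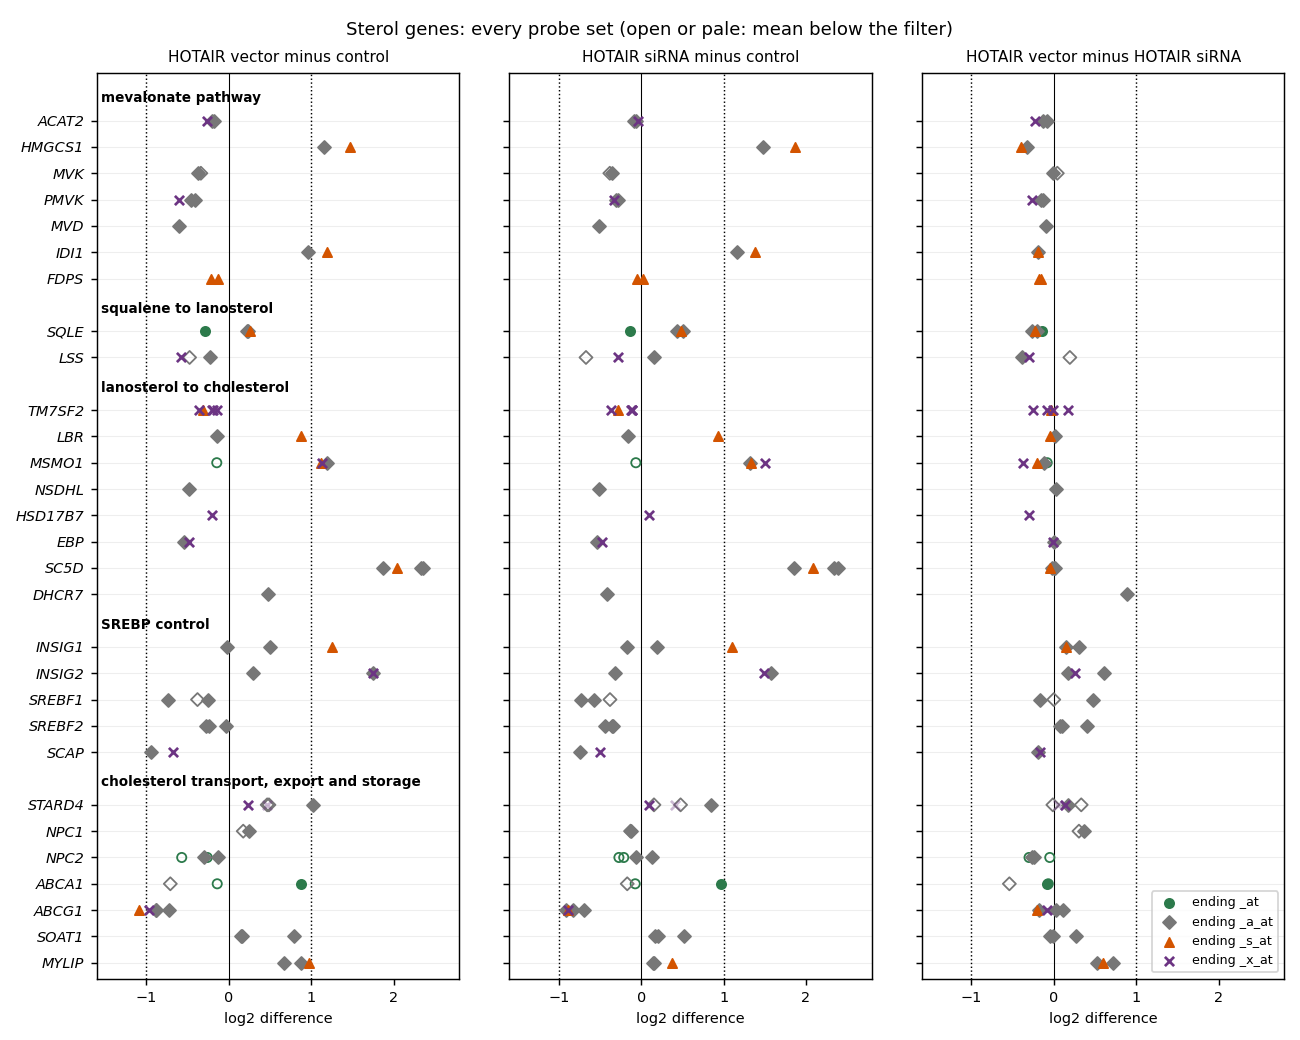
Log2 difference (x axis) for every probe set of each sterol gene (rows) in the 3 comparisons, with symbols by the ending of the probe set name and dotted lines at 2-fold. SC5D and HMGCS1 probe sets lie together past 2-fold in both comparisons with control, INSIG1, INSIG2 and LBR probe sets lie apart, and no probe set reaches 2-fold between the transfected cells.

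Transport, export and storage genes held no member past 2-fold on the probe set that stood for the gene. Of all genes kept, 15.2% lay past 2-fold above control for the vector and 14.9% for the siRNAs. With 7 genes in the group, a count of 0 cannot be set apart from such shares. ABCA1, the exporter that loads cholesterol onto apolipoproteins, had 7.14 in vector and 7.23 in siRNA cells, against 6.26 in control cells, differences of 0.88 and 0.97. ABCG1, an exporter to lipoprotein particles, had 8.69 and 8.87, against 9.57, differences of -0.88 and -0.70. The 2 exporters therefore lay on opposite sides of control, although both are known LXR targets. The 5 probe sets of ABCG1 were all below control, between -1.09 and -0.72 in vector cells and between -0.91 and -0.70 in siRNA cells, and only 4.18% of all genes had a vector minus control value as low as the -0.88 of the brightest. The other 2 ABCA1 probe sets had means below the filter, with differences between -0.71 and -0.07.

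MYLIP, an LXR target that encodes a ubiquitin ligase for lipoprotein receptors, had 10.03 in vector and 9.43 in siRNA cells, against 9.06 in control cells. Its 3 probe sets averaged 0.84 ± 0.15 for the vector and 0.23 ± 0.13 for the siRNAs (SD), and 0.61 ± 0.10 between the transfected cells. On the brightest of the 3, vector minus siRNA was 0.60, and 4.60% of all genes were as high. SOAT1, which esterifies cholesterol for storage, had on its brightest probe set a signal in vector cells that was 0.28 above that of siRNA cells (8.72) and 0.80 above that of control cells (8.20), but its other 2 probe sets differed from control by only 0.15 to 0.20. The lysosomal genes NPC1 and NPC2 differed from control by 0.24 and -0.30 in vector cells and by -0.13 and -0.06 in siRNA cells. STARD4, a cytosolic sterol carrier, had 6.33 and 6.19, against 6.10, on a probe set ending in _x_at. The next STARD4 probe set, ending in _a_at, had 6.46 and 6.29, against 5.44, which put it past 2-fold for the vector (1.02) and short of it for the siRNAs (0.85).

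Probe set names that end in _x_at or _s_at mark probes that can match more than 1 transcript. Of the 81 member probe sets, 12 ended in _s_at, 15 in _x_at, 48 in _a_at and 6 in none of these, and 14 of 29 genes were represented by a probe set ending in _s_at or _x_at. Every gene past 2-fold against control (HMGCS1, IDI1, MSMO1, SC5D and INSIG1) was represented by a probe set ending in _s_at. For vector minus control, 5 of the 12 _s_at member probe sets were at least 2-fold higher (41.7%), against 22.9% of all 3829 such probe sets above the filter. Of the 41 _a_at member probe sets above the filter 7 were higher (17.1%), against 15.0% of 10859, and of the 14 _x_at probe sets 2 (14.3%), against 10.5% of 4276. For siRNA minus control the member counts were 5 of 12 for _s_at, against 23.8% of all such probe sets, 7 of 41 for _a_at, against 13.8%, and 2 of 14 for _x_at, against 9.89%. Of the 2 member probe sets above the filter with none of these endings, 0 were higher in either comparison. Over all 3770 such probe sets, 20.2% were higher with the vector and 20.1% with the siRNAs. Thus the share past 2-fold differed between endings over all probe sets as well as among the members. The part of the ending in the members' results was not tested. Among the 22 members with at least 2 probe sets above the filter, all probe sets had the same sign in 19 for vector minus control, in 15 for siRNA minus control and in 15 for vector minus siRNA. Probe sets fell on both sides of the 2-fold line for ABCG1, IDI1, INSIG1, INSIG2 and STARD4 with the vector, and for INSIG1 and INSIG2 with the siRNAs.

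**Figure D3:**
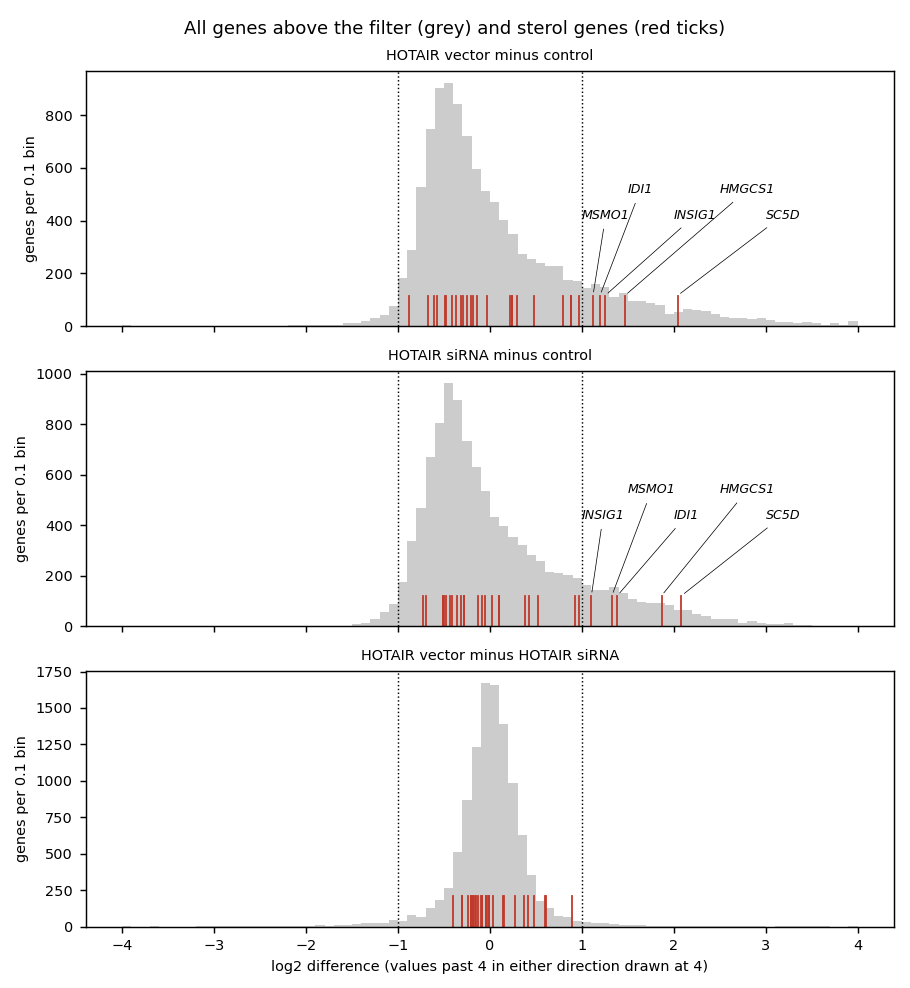
Number of genes (y axis, bins of 0.1) by log2 difference (x axis) for the 10917 genes kept in each comparison, with the 29 sterol genes as red ticks and dotted lines at 2-fold. Both comparisons with control have their peak below 0 and a long tail to the right, in which the 5 named sterol genes lie, and the comparison of the transfected cells is narrow, with no sterol gene past 2-fold.

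At 1.5-fold, 9 members were higher and 3 lower in vector than in control cells, set beside 22.9% and 19.4% of all genes. Besides the 5 genes past 2-fold, the higher ones were LBR, ABCA1, SOAT1 and MYLIP, and the lower ones were MVD, SCAP and ABCG1. In siRNA cells 7 were higher and 2 lower, set beside 22.8% and 18% of all genes, with LBR and ABCA1 added among the higher and SREBF1 and ABCG1 the lower. Between the transfected cells DHCR7, INSIG2 and MYLIP were at least 1.5-fold higher with the vector and 0 members were lower, set beside 4.74% and 4.95% of all genes.

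The promoters of the 5 genes past 2-fold against control, and of SREBF2, are shown because textbook SREBP targets carry a sterol regulatory element beside CCAAT and GC boxes. Sequences are from RefSeq (GRCh38.p14), 250 bases before to 50 after a listed start, in the gene's direction, and where several starts were listed the one with most matches was taken. Capitals mark CCAAT on either strand, or in SREBF2 the sterol regulatory element core TCACNCCAC. They lie at chr5:43313363-43313662 (minus strand) for HMGCS1, chr10:1048837-1049136 (minus) for IDI1, chr4:165327419-165327718 (plus) for MSMO1, chr11:121292521-121292820 (plus) for SC5D, chr7:155297628-155297927 (plus) for INSIG1 and chr22:41832855-41833154 (plus) for SREBF2.
HMGCS1: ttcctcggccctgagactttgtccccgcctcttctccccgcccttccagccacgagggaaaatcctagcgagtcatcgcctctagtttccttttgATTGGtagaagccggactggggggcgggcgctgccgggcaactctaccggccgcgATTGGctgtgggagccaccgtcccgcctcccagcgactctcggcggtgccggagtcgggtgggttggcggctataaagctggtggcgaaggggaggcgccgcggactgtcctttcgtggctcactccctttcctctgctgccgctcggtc
IDI1: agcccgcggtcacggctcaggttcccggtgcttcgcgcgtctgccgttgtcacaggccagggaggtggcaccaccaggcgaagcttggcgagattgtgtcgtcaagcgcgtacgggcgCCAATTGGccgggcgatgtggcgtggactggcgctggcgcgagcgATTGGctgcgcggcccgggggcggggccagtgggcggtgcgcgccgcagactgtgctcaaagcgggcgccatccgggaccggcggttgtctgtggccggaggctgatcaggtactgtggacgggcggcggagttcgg
MSMO1: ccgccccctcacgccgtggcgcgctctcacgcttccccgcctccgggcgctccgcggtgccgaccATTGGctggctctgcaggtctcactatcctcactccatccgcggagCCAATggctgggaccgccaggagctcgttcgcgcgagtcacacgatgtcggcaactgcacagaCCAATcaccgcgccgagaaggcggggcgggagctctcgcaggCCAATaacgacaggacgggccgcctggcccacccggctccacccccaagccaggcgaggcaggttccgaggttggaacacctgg
SC5D: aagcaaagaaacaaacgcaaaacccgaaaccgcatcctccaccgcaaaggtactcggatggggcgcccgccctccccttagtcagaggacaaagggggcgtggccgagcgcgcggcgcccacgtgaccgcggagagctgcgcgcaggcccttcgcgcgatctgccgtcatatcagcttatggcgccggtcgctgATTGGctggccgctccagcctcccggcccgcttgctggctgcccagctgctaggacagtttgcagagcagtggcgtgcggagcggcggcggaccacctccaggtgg
INSIG1: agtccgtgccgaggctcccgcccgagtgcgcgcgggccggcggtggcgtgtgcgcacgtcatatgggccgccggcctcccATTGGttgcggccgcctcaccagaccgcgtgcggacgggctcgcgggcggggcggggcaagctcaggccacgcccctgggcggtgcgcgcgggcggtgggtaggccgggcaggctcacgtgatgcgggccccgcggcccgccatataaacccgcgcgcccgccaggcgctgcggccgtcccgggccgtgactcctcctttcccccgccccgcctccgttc
SREBF2: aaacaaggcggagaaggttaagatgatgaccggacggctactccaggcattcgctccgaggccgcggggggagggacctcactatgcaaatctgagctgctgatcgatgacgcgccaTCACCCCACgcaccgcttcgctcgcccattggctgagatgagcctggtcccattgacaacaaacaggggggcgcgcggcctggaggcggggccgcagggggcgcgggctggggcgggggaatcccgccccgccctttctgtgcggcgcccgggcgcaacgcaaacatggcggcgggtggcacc
Each of the first 5 windows held CCAAT, with 2 matches for HMGCS1, 3 for IDI1, of which 2 overlap, 4 for MSMO1 and 1 each for SC5D and INSIG1. The choice of the start with most matches favoured this for genes with several starts. A match was found at 1 of 2 listed starts of HMGCS1, 2 of 3 of IDI1 and 2 of 2 of SC5D. CCAAT was found in 61.8% of 34 promoter windows of 27 members, against 34.6% of all 35116 windows, and the GC box GGGCGG in 91.2%, against 45%. All windows here were not limited to genes above the filter, as all measured members were, so these shares are not matched for expression. The core TCACNCCAC, searched on both strands, was in 1 member window, that of SREBF2, and in 1.13% of all windows. The E-box CACGTG was in 17.6% of member windows, against 7.26%, among them those of SC5D and INSIG1, and the LXR direct repeat was in 0 member windows and 7 of all windows. CCAAT was also found for members that were not 2-fold apart, such as MVD, EBP, NSDHL and LSS, so it did not separate the members past 2-fold from the others. A match describes these letters in this window and is not a site. In the same way, a window without a match lacks only that exact string, and variants of the sterol regulatory element were not searched.

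Genes of neighbouring pathways, in 6 lists of 82 further genes of which 69 were above the filter, were read against the same background of all genes kept, of which 15.2% were at least 2-fold higher in vector cells and 14.9% in siRNA cells. Among 14 fatty acid genes of the SREBP programme, 1 was at least 2-fold higher than control in each transfected group and 0 lower, with list medians of 0.03 and 0.09. That is 7.14% of the list, below the share of all genes. That gene was the fatty acid elongase ELOVL6, with 8.82 in vector and 8.98 in siRNA cells, against 6.96 in control cells. Its 3 probe sets gave 1.55 to 1.86 for the vector and 1.75 to 2.02 for the siRNAs. The synthase gene FASN was at -0.59 and -0.57 and the lyase gene ACLY at -0.14 and -0.08, so the fatty acid genes did not all lie on the same side of control. Of the 14, 7 were above 0 for the vector and 8 for the siRNAs, set beside 40.8% and 41.2% of all genes kept.

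Isoprenoid side branches, which use the products of IDI1 and FDPS, had 3 of 11 genes at least 2-fold higher in each transfected group and 0 lower (27.3%, against 15.2% and 14.9% of all genes). The list medians were 0.43 for the vector and 0.24 for the siRNAs, against -0.18 and -0.17 for all genes. The 3 genes were GGPS1, which makes geranylgeranyl diphosphate (log2 signals of 10.01 and 10.16, against 8.52 in control cells), and the geranylgeranyl transferase subunit genes RABGGTB (differences of 2.06 and 2.06) and PGGT1B (1.43 and 1.42). A second PGGT1B probe set gave 0.70 and 0.29, and a GGPS1 probe set gave 0.91 for the vector. Of 16 genes for SREBP processing and sterol-regulated degradation, 2 were at least 2-fold higher in vector cells and 3 in siRNA cells, with medians of 0.48 and 0.55. These shares, 12.5% and 18.8%, were near those of all genes. These were PAQR3, which tethers the SCAP complex to the Golgi (2.19 and 1.84), the intramembrane protease gene MBTPS2 that cleaves SREBPs (1.30 and 1.11) and, with the siRNAs, the vesicle coat gene SEC23A (1.00). The other MBTPS2 probe set was at 0.17 and 0.12. Of the 3 PAQR3 probe sets above the filter, the dimmest was past 2-fold for the vector but at 0.99 for the siRNAs. The other 3 SEC23A probe sets gave 1.02, 0.86 and 0.02 for the siRNAs. MARCHF6 was counted as not 2-fold apart (0.02 and 0.21). Its 2 further probe sets above the filter gave 1.09 and 0.87 for the vector and 1.46 and 1.42 for the siRNAs. NUS1, of the isoprenoid list, was likewise not counted (0.16 and 0.24), but a second probe set above the filter gave 1.16 and 1.19.

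Among 18 sterol carriers and oxysterol-binding proteins, 4 were at least 2-fold higher in each transfected group and 0 lower, with medians of 0.20 and 0.24. That is 22.2% of the list, against 15.2% and 14.9% of all genes. OSBPL8, a lipid exchanger anchored in the endoplasmic reticulum, had 9.71 in vector and 9.10 in siRNA cells, against 6.15 in control cells. GRAMD1C, of a family that moves sterol from the plasma membrane, had 7.33 and 6.95, against 4.06. The control signal of GRAMD1C lay under the filter level and not far above that array's lower quartile of 3.72, so the size of its difference is uncertain. OSBPL11 (1.14 and 1.05) and VPS13A (1.07 and 1.01) were just past 2-fold. A second probe set above the filter was short of it for both genes, at 0.86 and 0.76 for OSBPL11 and at 0.43 and 0.25 for VPS13A. The control signal of VPS13A, 4.94, also lay under the filter level. GRAMD1C and VPS13A thus passed the filter only through their signals in the transfected cells. In each of these lists 0 genes were 2-fold apart between the transfected cells, where 1.73% of all genes were higher with the vector and 1.85% lower.

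**Figure D4:**
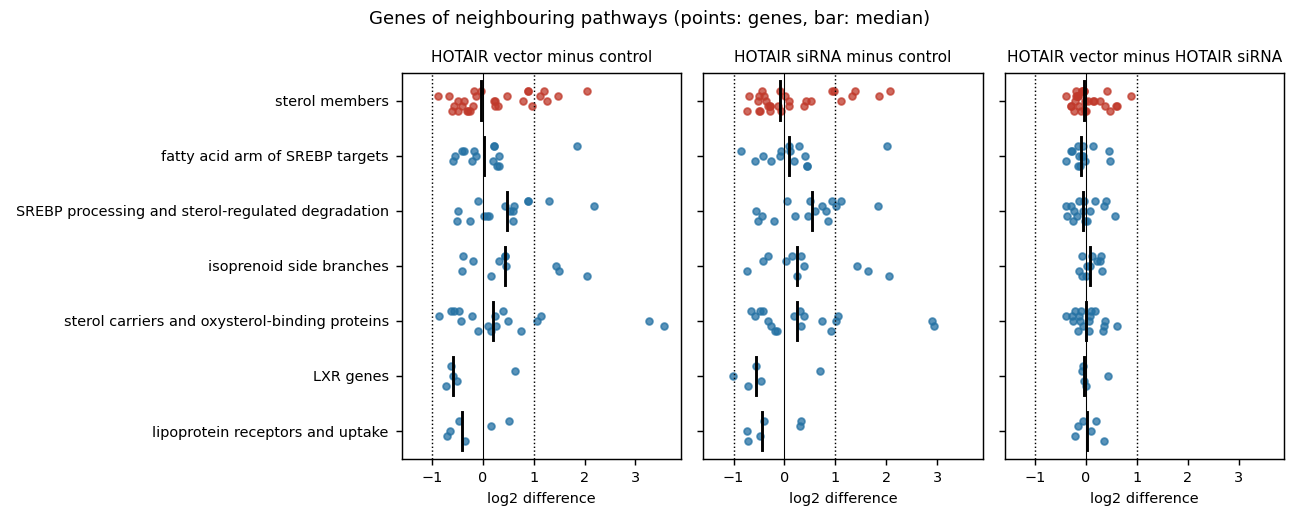
Log2 difference (x axis) of each gene above the filter in the sterol list (red) and in 6 lists of neighbouring pathways (blue) for the 3 comparisons, with black bars at list medians and dotted lines at 2-fold. Points past 2-fold lie on the higher side in the comparisons with control, apart from 1 LXR gene at -1.02 in siRNA minus control, and none passes it between the transfected cells.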

How the data were processed

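RNA of 3 KYSE180 samples was labelled with biotin by a 3' IVT kit, per the labels' protocols. Each array's deposited log2 values come from RMA, run by the authors, per the submitters' processing notes. The log2 scale was read from their range, and the version and settings of RMA were not given in the sources used here. Signals of different probe sets are not comparable as amounts, so differences between arrays are taken only within a probe set. The filter, the choice of the brightest probe set and the cell type markers do use signals across probe sets, as a rough guide only. Of 49293 probe sets, the platform annotation gave 1 symbol to 44988, several to 1832 and did not list 2473, and all 31 member symbols were in the RefSeq table. Differences were taken between arrays for each gene and probe set and counted at 2-fold. Named are members past 2-fold, members whose probe sets disagree, the brightest of each role, and other list genes past 2-fold, and the remaining members are given for completeness. FASN, ACLY, MARCHF6 and NUS1 are named as well, although they were not counted as past 2-fold. Members and lists were chosen with earlier results of these data known. Neighbouring lists leave out genes that are members. Alternatives were the mean over probe sets, dropping _x_at and _s_at probe sets, quantile normalization, cyclic loess (span 0.4, 3 cycles), no filter, a filter at the 75th percentile, 1.5-fold and centring. Python 3.11.15, numpy 2.4.6, pandas 2.3.3, statsmodels 0.14.6 and matplotlib 3.10.9 were used.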

Additional observations from a re-analysis of the deposited data

How the results depend on the processing

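No paired analysis was possible because there was 1 array per group. SC5D and HMGCS1 were at least 2-fold above control in both transfected groups under every alternative run. The number of members higher in vector than in control cells was 5 of 29, set beside 15.2% of all genes kept. It was 4 of the 27 members kept with the mean over probe sets (12.8% of all genes). It was 4 of the 26 kept without _x_at and _s_at probe sets (14.7%). It was 7 after cyclic loess (17.4%) and 9 at 1.5-fold (22.9%). After centring on the median of all genes, an alternative chosen after seeing the data, it was 8 (18.1%). The number lower was 0, set beside 2.05% of all genes. It was 1 (ABCG1) after repeated quantile normalization, a split of 5 higher and 1 lower, where 4.74% of all genes were lower. At 1.5-fold it was 3 (19.4%). With the siRNAs the number higher than control was 5 of 29. It was 4 of 27 with the mean over probe sets (11.3% of all genes) and 4 of 26 without _x_at and _s_at probe sets (14.1%). It was 7 after cyclic loess (18.2%), 7 after centring (17.9%) and 7 at 1.5-fold (22.8%). The number lower than control with the siRNAs was 0, and 2 at 1.5-fold. The number higher in vector than in siRNA cells was 0, and 3 at 1.5-fold. Without probe sets ending in _x_at or _s_at, INSIG1 was at -0.02 for vector minus control and -0.17 for siRNA minus control, IDI1 at 0.97 for the vector, LBR at -0.14 and -0.16, and STARD4 at 1.02 and 0.85. Averaging the probe sets put MSMO1 at 0.83 for the vector, because that mean includes its dim probe set, and INSIG2 past 2-fold for the vector. The members' median for vector minus control was 0.18 after cyclic loess and -0.14 with the filter at the 75th percentile, so its sign has no fixed direction. Under quantile normalization or cyclic loess 2 of 29 members turned sign in vector minus control (HSD17B7 and SREBF2), 3 in siRNA minus control (ACAT2, NPC1 and NPC2) and 1 in vector minus siRNA (NSDHL). Centring shifts all genes alike, and only members lying between 0 and the median of all genes change sign with it. Precision is limited by having 1 array per group, and 12 of the 81 member probe sets had means below the filter.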

Other observations

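Of 5 LXR genes above the filter that are not members (NR1H3, RXRA, RXRB, NCOA1 and LPCAT3), 4 were below 0 in both comparisons with control. Of all genes kept, 59.2% were below 0 for the vector and 58.8% for the siRNAs. The medians were -0.60 and -0.56, against -0.18 and -0.17 for all genes. Of the 5, 1 was at least 2-fold lower in siRNA cells, where 1.85% of all genes were. That gene was NR1H3, which encodes an LXR receptor, with 5.81 in vector and 5.39 in siRNA cells, against 6.41 in control cells, on 1 probe set. Members that also belong to the LXR list were split. ABCA1 and MYLIP were above control in both comparisons, and ABCG1 and SREBF1 were below it. Lipoprotein receptor and uptake genes had 0 of 6 past 2-fold in any comparison. For the vector, 15.2% of all genes kept lay past 2-fold above control and 2.05% below it. For the siRNAs these shares were 14.9% and 1.85%. A list of 6 genes is too short to set a count of 0 apart from such shares. The list medians were -0.41 for the vector and -0.44 for the siRNAs, set beside -0.18 and -0.17 for all genes kept.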
